A study of Mus musculus with 14 samples.

Results

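The regions described here are the stretches of chromatin marked by acetylation of lysine 27 of histone H3 (H3K27ac) that the authors' annotation places in an exon, a 5' UTR, a 3' UTR or just downstream of a gene. They were chosen only by that annotation, from the authors' table of regions of Y1 cells, and they number 3128 of 40772 regions (7.67%). Exons account for 1631, 3' UTRs for 763, downstream positions for 440 and 5' UTRs for 294. The Y1 line derives from an adrenocortical tumour of the mouse. Cells were starved of serum for 48 h, then received 10% fetal bovine serum alone (serum group) or that serum plus fibroblast growth factor 2 (FGF-2) at 10 ng/ml (FGF-2 group), and were collected after 5 h. All groups shared the starvation and the serum, so each comparison is of FGF-2 added to serum. H3K27ac was measured by chromatin immunoprecipitation and sequencing in 2 libraries per group, and polyadenylated RNA in 3 libraries per group. Nothing in the labels says that the libraries came from separate cultures, so the p-values measure only the spread between these libraries, which may be technical.

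H3K27ac is laid down mainly by the acetyltransferases p300 and CBP and marks active promoters and enhancers. Enhancers are not limited to introns and intergenic sequence: acetylated nucleosomes can also lie over exons and the ends of genes. FGF-2 binds FGF receptors and activates the ERK kinases, which in turn act on transcription factors of the AP-1 and ETS families. In Y1 cells FGF-2 added to serum is known for stopping proliferation.

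The annotation gives promoters priority, so a region within 3 kb of a start of an annotated gene is not among the 3128. The median distance to the nearest such start was 19573 bases, and 235 regions lay before that start. The median width was 784.5 bases, with a range of 165 to 22375. Exon widths were not measured, so how far a region reaches past the exon it touches is not known. Of the 1631 exon regions, 1324 lay in a numbered gene, and in 1295 of these (97.8%) that gene was also the one with the nearest start. The other 307 lay in transcripts with no gene number, 222 of them in exon 1. The regions were listed under 2293 genes, of which 1668 had 1 region, 625 had at least 2 and 14 had at least 5. The mean signal over the 4 libraries had a median of 36.2 reads, scaled to the smallest library, against 122.4 for regions within 1 kb of a start and 38.2 for all regions.

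Some exon and UTR regions also hold a gene start in RefSeq, of another gene or of the gene they are listed under. A window from 250 bases before to 50 bases after a RefSeq start lay wholly inside 59 of the 3128 regions. Of these 59, 6 were higher and 2 lower with FGF-2 at a limma false discovery rate of 0.05, by which 12.6% and 3.73% of all regions were called, so the counts set the 59 regions apart in neither direction. The sequences around the start in the 8 changed regions are shown because the annotation alone names them only as exon or UTR. Each run gives 15 bases before and 15 after the start, read on the strand of the gene, with transcribed bases in capitals (RefSeq, GRCm38.p6).
Gm52041 in the Ssr1 3' UTR region (chr13:37966263-37966292, plus strand): tttttttttaagcagGCTCTTAAGCCAGCC
Dgka in the Dgka 5' UTR region (chr10:128737598-128737627, minus strand): cgtgtccgaagcgctAGAGGTCGTTGCAGG
Gm12059 in a region of exon 1 of 2 near Fam161a (chr11:23065049-23065078, plus strand): attcgggagccaggcCATTTTGTTAGAATA
Lsmem2 in the Sema3b 3' UTR region (chr9:107597061-107597090, minus strand): atctgaaaggagccaTTGCTCTCTTTGTCA
Gm40863 in the Mboat1 exon 10 region (chr13:30235209-30235238, minus strand): agcggcacagtcccaACTGCATCCAATTTT
Gm35099 in the Pakap exon 6 region (chr4:57755552-57755581, minus strand): ctaaaaagagaaacaATATTTGATACTATT
Gm51820 in the Lrp1 exon 7 region (chr10:127598977-127599006, plus strand): atggttccggtcactTTCTGTAAACTCAGG
Gm51757 in the Syne1 exon 24 region (chr10:5326862-5326891, plus strand): ctccgtgcttccccaCCAAGTCACCCCTCA
The Gm genes are long noncoding RNAs in RefSeq, and Dgka and Lsmem2 code for proteins.

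The Ssr1 3' UTR region had a signal of 128.9 and 84.4 in the serum libraries and 298.6 and 329 in the FGF-2 libraries. Its log2 difference was 1.58 ± 0.26 (SE; limma adjusted p = 7.09e-08). The Dgka 5' UTR region, in a gene for a diacylglycerol kinase, had 49.7 and 45.1 against 145.5 and 153. It rose by 1.63 ± 0.29 on the log2 scale (limma adjusted p = 6.47e-07). In both regions the FGF-2 libraries lay above both serum libraries. The Sema3b 3' UTR region fell, from 117.9 and 61 to 31.4 and 41, a log2 difference of -1.22 ± 0.32 (limma adjusted p = 0.00168). The Mboat1 region fell as well, by 0.92, and the regions of Fam161a, Pakap, Lrp1 and Syne1 rose by 0.67 to 0.98.

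The windows of the 59 regions were searched on both strands for 5 motifs. TGANTCA (AP-1) was in 5.8% of the 69 windows and in 7.81% of all 32851 RefSeq windows of that length. CCGGAAG (ETS) was in 10.1% against 8.86%, TGACGTCA (a cyclic AMP response element, CRE) in 5.8% against 1.79%, CACGTG (E-box) in 8.7% against 7.15%, and TCAAGGTCA (NR5A1) in 0 of 69 against 0.423%. No motif contains another. In the 8 changed regions, 2 windows held a motif, given in capitals.
ETS letters in reverse, in the Gm52041 window of the Ssr1 3' UTR region (chr13:37966031-37966060): attacctgggaCTTCCGGgggccccaccct
E-box letters in the Dgka window (chr10:128737612-128737641): ctagttcggagtCACGTGtccgaagcgcta
These matches are letters in a window and not measured binding sites.

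With FGF-2, 528 of the 3128 exon, UTR and downstream regions gained H3K27ac and 155 lost it. A change was called with limma on log2(signal + 1) over all regions at a false discovery rate of 0.05. The higher calls were 16.9% of these regions against 12.6% of all regions, and the lower calls 4.96% against 3.73%. Regions outside promoters in introns and between genes gave 17.4% and 4.86%, close to the exonic, UTR and downstream regions. Regions within 1 kb of a start gave 2.67% and 1.39%. Of the called regions 77.3% were higher. Serum library 2 had a lower median log2 signal over all regions (5.07) than the other 3 libraries (5.31 to 5.42), and 28% of its fragments lay in regions against 34.1% to 35.3%. With every library centred on its median the counts were 403 higher and 243 lower, so that 62.4% were higher, and without serum library 2 they were 482 and 206. Without serum library 1 the counts were 607 and 62, without FGF-2 library 1 they were 142 and 53, and without FGF-2 library 2 they were 225 and 63. With a library left out its group holds 1 library, the spread comes from the other group alone, and the lone library is assumed to vary like that group.

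The same direction was called by limma, by edgeR on whole reads recovered from the signal and in the authors' deposited table for 360 higher and 70 lower regions (background 8.1% and 1.6% of all regions). The authors' deposited table called 370 and 72 (background 8.33% and 1.64%), and edgeR 451 and 240 (background 10.6% and 6.69%). In 1230 regions both FGF-2 libraries lay above both serum libraries, and in 624 both lay below (background 33.6% and 18%). Of the called regions 425 higher and 120 lower ones differed by at least 1 on the log2 scale, against 4442 of 5145 higher and 1165 of 1521 lower calls over all regions.

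**Figure D1:**
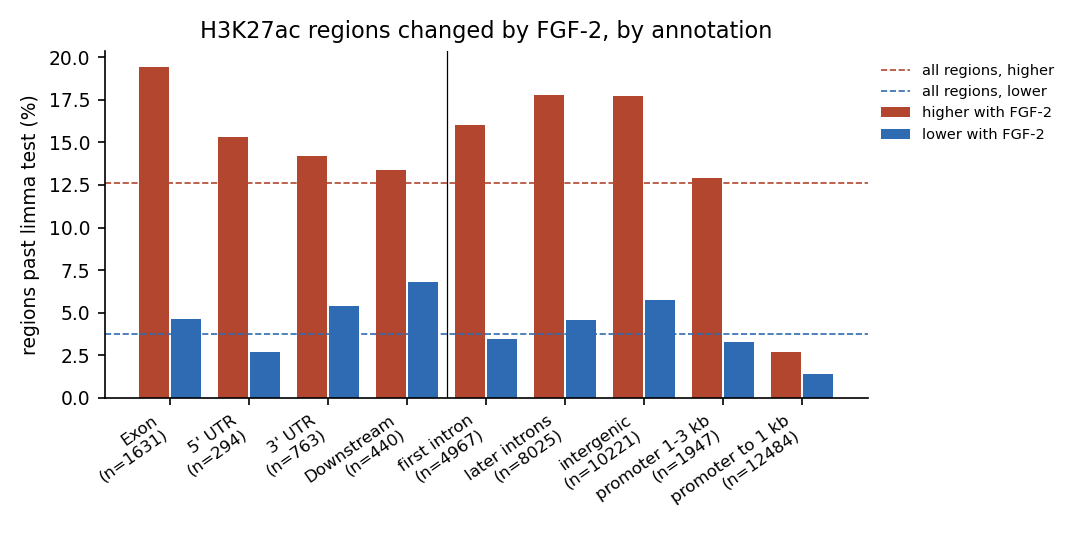
Share of H3K27ac regions past the limma test (vertical axis, percent), higher (red) or lower (blue) with FGF-2, for the exon, UTR and downstream classes left of the line and the other classes right of it; dashed lines give all regions. The exon class reached 19.4% higher, and regions within 1 kb of a start 2.67%.

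Exon regions gained the mark most often in this annotation. Of the 1631, 316 were higher (19.4%) and 76 lower (4.66%). Among exon regions of numbered genes 273 of 1324 were higher (20.6%), and among those of transcripts with no gene number 43 of 307 (14.0%). Regions in the last exon of a numbered gene gave 14 of 119 (11.8%), and those in exon 4 or later 206 of 1006 (20.5%). In the 5' UTR class 45 of 294 were higher (15.3%) and 8 lower (2.72%). The 3' UTR class had 108 higher of 763 (14.2%) and 41 lower (5.37%). Downstream regions had 30 losses of 440 (6.82%) beside 59 gains (13.4%). In the authors' deposited table the lower counts were 7 of 440 downstream, 22 of 763 3' UTR, 3 of 294 5' UTR and 40 of 1631 exon regions, which is another order of the classes. These shares were not tested against each other, since regions are not replicates. Width moved with the share of gains: 12.3% of regions up to 500 bases were higher and 21.3% of those over 2000 bases, with median mean signals of 13.5 and 211.2. The part of width and signal in the class differences was not tested. By distance, 14.9% of regions within 10 kb of the nearest start and 21.3% of those beyond 100 kb were higher.

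The part of all region signal that fell in these regions was 6.14% and 6.41% in the serum libraries and 6.85% and 6.59% in the FGF-2 libraries. Both FGF-2 values were above both serum values, and the means were 6.28% ± 0.187 and 6.72% ± 0.182 (SD, n = 2 each). The difference of 0.446 percentage points had an exact two-sided permutation p of 0.333, the smallest that 2 libraries against 2 allow.

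Peaks called in each library separately were counted over the regions. A peak of serum libraries 1 and 2 overlapped 2602 and 2496 of the 3128 regions, and a peak of FGF-2 libraries 1 and 2 overlapped 2778 and 2713. All 4 libraries had a peak in 1924 regions (61.5%), 3 libraries in 485 and 2 libraries in 719. The 719 include 335 regions with a peak in both FGF-2 libraries and in neither serum library, of which 204 were called higher. In 162 regions both serum libraries and neither FGF-2 library had a peak, and 47 of these were called lower. Peak calls and region signal come from the same libraries, so they are not separate evidence. Every region had a peak in at least 2 libraries, so a region high in only 1 group could be listed through that group's peaks alone. The peak counts were not made over all regions, so they are not shown to be particular to the exon, UTR and downstream regions. Of the called regions, 256 of 528 higher and 78 of 155 lower ones had a peak in all 4 libraries.

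A short stretch of chromosome 6 stood apart in its input. From the pileup and fold that the authors' peak caller gave for each peak, the control level at 15 regions between chr6:145160744 and chr6:148820021 was at least 10 in every library with a peak. The median control level there was 23.3 to 29.7 in the 4 libraries, against 0.939 to 1.14 over all exon, UTR and downstream regions. Of these 15 regions, 7 were called higher and 2 lower, and edgeR called 3 and 3. Over all regions, 147 had a control level of at least 10, 128 of them on chromosome 6. Of those 147, limma called 27 higher (18.4%) and 22 lower (15.0%), and edgeR 18 and 31. A count of 15 is too small to set the exon, UTR and downstream regions apart from them. Of the 5 regions of largest signal 3 were among them: an exon 2 region of 4930479D17Rik at 4533.2 and 4063.2 in serum and 5761.7 and 5167 with FGF-2, and exon regions of Ipo8 and Tmtc1. Tmtc1 exon 9 had 3317.7 and 1450.8 against 2501 and 4485. Its groups overlapped, and its limma call (adjusted p = 0.0327) was not shared by edgeR (adjusted p = 0.562). Without the 15 regions the counts were 521 higher and 153 lower. Whether control reads were subtracted from the region signal is not given in the sources used here.

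**Figure D2:**
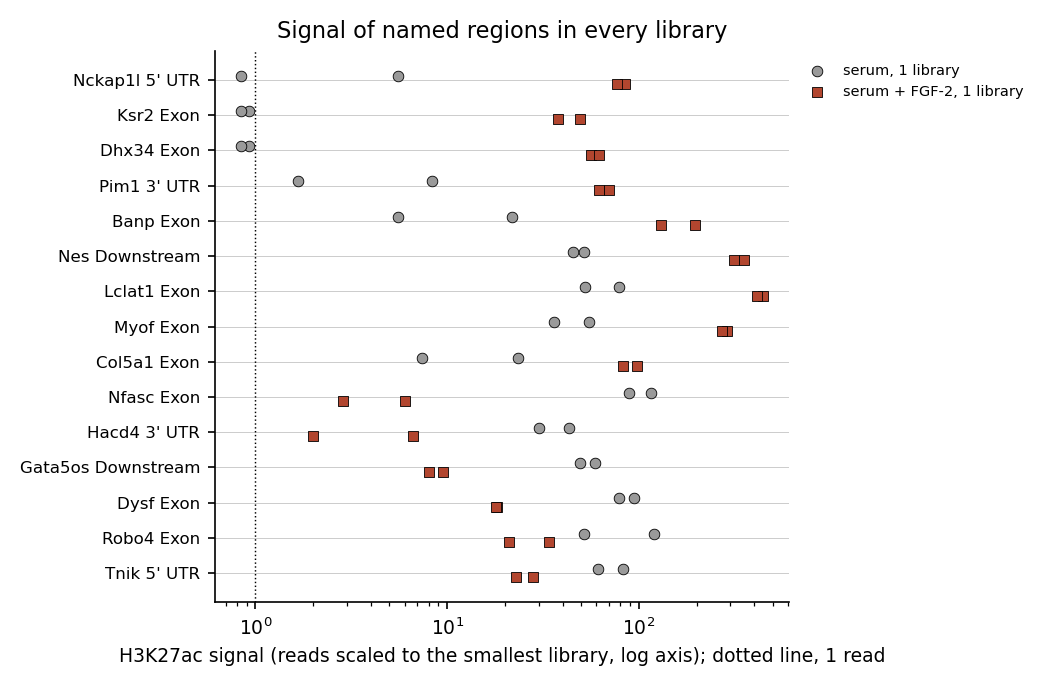
H3K27ac signal (horizontal log axis, reads scaled to the smallest library) of 15 named regions, with 1 point per library: grey circles for serum and red squares for serum with FGF-2; the dotted line marks 1 read. In each row the 2 groups do not overlap, which the choice of regions required for the largest gains and losses.

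The regions that gained most had a very low listed signal in serum. Each of the 8 largest gains had a peak in only 2 libraries, the least that any of the 3128 regions had. A region low in serum could be listed through FGF-2 peaks alone, so these gains are not independent of how regions were listed. The region over exon 5 of 8 of Dhx34, a gene for an RNA helicase, had 0.92 and 0.84 in serum. Both are the lowest value of their library, equal to 1 read. With FGF-2 the region had 56.1 and 62. Against an assumed floor of 3 reads per serum library, its listed signal was at least 22.4-fold higher (limma adjusted p = 5.69e-13, edgeR adjusted p = 7.18e-05). The fold bounds given here hold for the listed signal, from which control reads may or may not have been subtracted. Dhx34 RNA rose too, from 28, 32.9 and 38.7 to 156.6, 140.9 and 158.6 CPM, counts scaled to library size. The region over exon 9 of 20 of Ksr2, a scaffold of the RAF-MEK-ERK cascade, was at least 16.6-fold higher, from 0.92 and 0.84 to 49.5 and 38. Ksr2 RNA was 0, 0.426 and 4.48 CPM in serum and 34.3, 21.4 and 50.3 CPM with FGF-2. It rose by 4.76 ± 0.94 on the log2 scale (edgeR adjusted p = 0.00983). Regions downstream of Psmd7, a proteasome subunit gene, and over exon 19 of 30 of Ift140, a gene for ciliary transport, were at least 18-fold and at least 16.9-fold higher. Their RNA did not pass the test (log2 differences of 0.19 ± 0.10 and 0.35 ± 0.16). Of the 8 largest gains, Ints13 exon 16 and Lrmp exon 12 lie in the chromosome 6 stretch of high control level. Ints13 exon 16 had 0.92 and 0.84 in serum against 147.4 and 50, where the control level was 26.2 and 23.2 at the FGF-2 peaks. The part of the control level in these values was not tested.

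A region over the 5' UTR of Nckap1l (chr15:103470347-103471609, 16.5 kb from the nearest start), a gene for a blood-cell subunit of the WAVE actin regulator, had 5.52 and 0.84 in serum and 84.6 and 77 with FGF-2. It rose by 4.56 ± 0.49 on the log2 scale (limma adjusted p = 5.82e-18). Nckap1l RNA was 0.574, 2.02 and 14.3 CPM in serum and 165, 118.3 and 274.3 CPM with FGF-2, with no overlap of the groups. The 3' UTR region of Pim1, a serine/threonine kinase gene, had 8.29 and 1.67 against 61.8 and 70. Its log2 difference was 3.75 ± 0.47 (limma adjusted p = 4.16e-13), while the promoter of Pim1 differed by 0.56 and was not called. Pim1 RNA rose from 22, 29.7 and 46.5 to 370.3, 388.2 and 463 CPM. Banp exon 6 of 14, in a gene for a DNA-binding protein of the nuclear matrix, rose from 5.52 and 21.7 to 195.9 and 131 (log2 difference 3.73 ± 0.34, limma adjusted p = 1.79e-24).

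Other gains started from a clear signal in serum. A downstream region of Nes (chr3:87982636-87986865), the gene for the intermediate filament protein nestin, had 45.1 and 51.8 in serum and 354.7 and 312 with FGF-2, a log2 difference of 2.76 ± 0.27 (limma adjusted p = 2.03e-21). Nes RNA was 0.574, 1.92 and 1.33 CPM in serum and 24, 10.1 and 10.5 CPM with FGF-2 (edgeR adjusted p = 0.00112). The region near Lclat1 (chr17:73250120-73254726) lies over exon 1 of 4 of a transcript with no gene number, 142.1 kb from the start of Lclat1. Its signal was 52.5 and 78.6 in serum and 446 and 414 with FGF-2 (log2 difference 2.72 ± 0.26, limma adjusted p = 2.92e-22). Both regions had non-overlapping groups and kept their call without any single library. Lclat1 RNA differed less, by 0.52 ± 0.17 (edgeR adjusted p = 0.0296), and did not pass with upper-quartile scaling or library totals. Both regions were named for their small p and also under a rule that took regions with RNA called the same way.

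Among matrix genes, Col5a1, a fibrillar collagen chain gene, gained over exon 3 of 66, from 7.37 and 23.4 to 98 and 83 (2.67 ± 0.36, limma adjusted p = 2.74e-11), and its RNA rose by 0.98 ± 0.26 (edgeR adjusted p = 0.0139). Fbn1, the gene of the microfibril protein fibrillin, lost signal over exon 14 of 66, from 102.2 and 77.7 to 33.3 and 47 (-1.15 ± 0.31, limma adjusted p = 0.0027), a call lost without FGF-2 library 1. Its RNA fell from a mean of 13.6 to 3.53 CPM.

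Myof, which encodes the membrane repair protein myoferlin, held 7 of the regions, and they did not change alike. Exon 19 of 53 rose from 35.9 and 55.2 to 288.1 and 273 (2.63 ± 0.27, limma adjusted p = 7.07e-19). Exon 21, about 2 kb away by coordinates, had 90.2 and 76.9 against 161.7 and 119 (0.73 ± 0.27, limma adjusted p = 0.0491), a call lost without serum library 2 or either FGF-2 library and with centred libraries (adjusted p = 0.0842). The exon 2 region, with the most signal of the 7, had 578.3 and 452.9 against 649.5 and 663 and was not called (0.36 ± 0.23). The other 4 differed by 0.19 to 0.91 and were not called. Myof RNA rose from 470.7, 477.2 and 529.6 to 937.3, 936.9 and 819.3 CPM. Ubr4, a ubiquitin ligase gene, held 9 regions: those over exons 23, 26, 38 and 44 of 106 rose by 1.03 to 2.06, and the other 5 were not called (-0.31 to 0.59). The 4 Ubr4 calls were each lost without FGF-2 library 1 and without FGF-2 library 2. Ubr4 RNA was 447.3 CPM on average in serum and 519.3 CPM with FGF-2 and did not pass the test.

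The 7 regions listed under B930018H19Rik on chromosome 8 all rose. They lie within 300 kb before the start of Dusp4, a phosphatase gene that dampens ERK signalling. The stretch was singled out after its values were seen. The region over exon 4 of 5 of B930018H19Rik (chr8:34591245-34592856) had 1.84 and 5.85 in serum and 120.8 and 88 with FGF-2 (4.56 ± 0.44, limma adjusted p = 5.63e-22). The other 6 rose by 1.71 to 4.51 on the log2 scale. Of the weaker pair near exons of an unnumbered transcript, 1 lost its call without serum library 2 or either FGF-2 library, and the other without FGF-2 library 1. Of the 25 other regions in the same 300 kb, 23 were higher, and the other 2 differed by 0.61 and 1.09 and were not called. The exon 2 region of Dusp4 itself (chr8:34813620-34817383) had 314 and 312.6 in serum and 496.4 and 532 with FGF-2. This smaller difference of 0.71 ± 0.24 (limma adjusted p = 0.0235) was lost without either FGF-2 library. Dusp4 RNA was 0.574, 0.745 and 2.16 CPM in serum and 22.7, 19.6 and 36.9 CPM with FGF-2, while B930018H19Rik was not among the tested RNA genes.

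**Figure D3:**
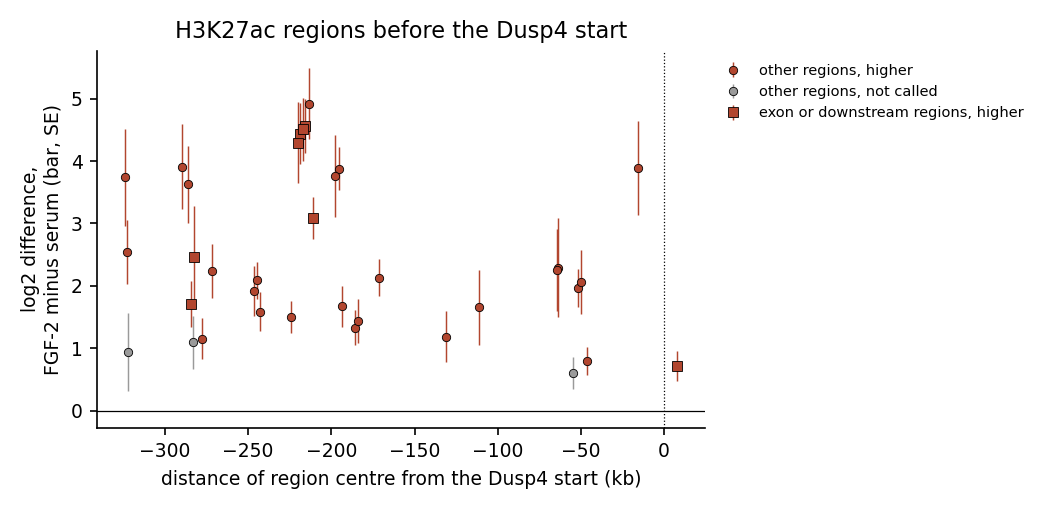
Log2 difference in H3K27ac (vertical axis, FGF-2 minus serum, bars for SE) of each region against the distance of its centre from the Dusp4 start (horizontal axis, kb); squares are exon and downstream regions and circles all others. Of 32 regions within 300 kb before the start, 30 were higher (red), among them 7 exon and downstream regions.

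The largest losses were fewer. Exon 23 of 27 of Nfasc (chr1:132594921-132596424), the gene of the adhesion protein neurofascin, had 116 and 89.4 in serum and 2.85 and 6 with FGF-2. It fell by 4.31 on the log2 scale (SE 0.42, limma adjusted p = 7.23e-21). Nfasc RNA was 16.2, 16.4 and 10.8 CPM in serum and 1.75, 1.68 and 1.99 CPM with FGF-2. Dysf exon 4 of 19, in the gene of the membrane repair protein dysferlin, had 93.9 and 78.6 against 18.1 and 18 (-2.19 ± 0.35, limma adjusted p = 2.51e-08). Dysf RNA fell from 147.3, 179.6 and 119 to 42, 28.8 and 45.3 CPM. The other exonic Dysf region had 78.3 and 66 against 73.2 and 66 and was not called (-0.048 ± 0.297). A region downstream of Gata5os, an antisense transcript of Gata5, had 58.9 and 49.3 against 9.51 and 8 (-2.50 ± 0.42, limma adjusted p = 2.65e-07). The 3' UTR region of Hacd4, a fatty acid elongation gene, had 43.3 and 30.1 against 6.66 and 2 (-2.95 ± 0.55, limma adjusted p = 3.77e-06). Its promoter fell as well, by 1.12, while its RNA did not pass the test (-0.48 ± 0.39). In these 4 regions both FGF-2 libraries lay below both serum libraries, which the rule for naming the largest losses required.

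Neighbouring regions over exons 5 and 6 of Unc45b, a myosin chaperone gene, had log2 differences of -2.44 ± 0.48 and -2.48 ± 0.52, and exon 5 of Mapkapk5, a kinase gene, -2.24 ± 0.45. The RNA of both genes did not pass the test. Plekhh2 exon 24 of 30 had 82 and 33.4 against 0.95 and 11. Its limma call (-3.47 ± 0.50, adjusted p = 5.05e-10) was shared by edgeR (adjusted p = 0.00318) and not by the authors' deposited table (false discovery rate 0.14). Robo4 exon 13 of 18, in a gene for an endothelial guidance receptor, had 120.6 and 51.8 against 20.9 and 34 (-1.53 ± 0.33, limma adjusted p = 0.000102), a call lost without serum library 1 or FGF-2 library 1. Robo4 RNA fell from 13.7, 7.24 and 6.81 to 0.39, 1.15 and 0.724 CPM. The Robo4 region was named only because its RNA was called the same way, so this match follows from the choice. The named regions of Nfasc, Dysf and Tnik met that rule too, beside other rules. Losses chosen for RNA called the opposite way are described under other observations. The 5' UTR region of Tnik, a kinase gene of Wnt and JNK signalling, had 82.9 and 61 against 22.8 and 28 (-1.46 ± 0.34, limma adjusted p = 0.000374), lost without FGF-2 library 1, and its RNA fell from a mean of 27.9 to 10.7 CPM.

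By gene list, of 15 regions of chromatin regulators, 6 rose. Most of these lay at a single gene, and the others at Dot1l and Setd1a. Of the 15, edgeR called 5 higher and 1 lower. Without FGF-2 library 1, 3 of the 15 were called higher, and without FGF-2 library 2, 4. The RNA of 6 of the 9 tested genes of these regions rose and that of 1 fell. The Dot1l 5' UTR region had 10.1 and 0.84 against 54.2 and 28; it was called by limma (3.14 ± 0.55, adjusted p = 5.67e-07) and not in the authors' deposited table (0.195), and not by limma without FGF-2 library 1. Of 24 regions of actin and adhesion genes, 6 rose, at Actn4, Ahnak, Bcar1, Rhob and Tpm1, and edgeR called 4 higher and 1 lower. Without either FGF-2 library 1 of the 24 was called higher. The Ahnak 3' UTR region rose from 349.9 and 475.5 to 924.3 and 674 (0.95 ± 0.23, limma adjusted p = 0.000865), though edgeR gave 0.068 and either FGF-2 library left out ended the call. Of 22 regions of matrix and protease genes 4 rose, 1 of them at Col5a1, and 1 fell, at Fbn1. Without either FGF-2 library 2 of the 22 were called higher. Of 9 regions of cholesterol and lipid genes 2 rose, both at Scd1. The 3' UTR region of Scd1, a fatty acid desaturase gene, had 69.1 and 60.2 against 184.5 and 121 (1.20 ± 0.28, limma adjusted p = 0.00035; lost without FGF-2 library 1).

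Among the lists of FGF signalling, of 7 regions of ERK feedback regulators 2 rose (Dusp4 and Spry2) and 1 fell (Dusp1), and without either FGF-2 library 0 were called higher. The larger Dusp1 region, downstream of that phosphatase gene, had 183.2 and 151.3 against 112.2 and 105 (-0.61 ± 0.27), which limma did not call (adjusted p = 0.102) and edgeR did (adjusted p = 0.00636). Of 14 regions of immediate-early, AP-1 and ETS genes 1 rose, the 3' UTR region of Bhlhe40, a circadian repressor gene (38.7 and 25.1 against 72.3 and 65; 1.11 ± 0.33, limma adjusted p = 0.00804; lost without serum library 2 or either FGF-2 library). Of 6 regions of BMP, TGF-beta and SMAD genes 1 rose, exon 3 of 4 of Smad7, an inhibitor of TGF-beta signalling (0.74 ± 0.26, limma adjusted p = 0.0312; lost without either FGF-2 library). Of 11 cell cycle regions 1 rose, the 5' UTR region of Mdm2, which encodes the ubiquitin ligase of p53 (1.21 ± 0.27, limma adjusted p = 0.000213, lost without FGF-2 library 1), and 1 fell, at Rbl1. By limma 0 of 9 regions of secreted ligands were called, with 2 higher and 2 lower at an unadjusted p of 0.05 and 1 called lower by edgeR. For steroidogenesis and adrenocortical identity the limma count was 0 of 8, with 0 at an unadjusted p of 0.05 and 0 by edgeR, DESeq2 or the authors' deposited table. For Wnt, Notch and hedgehog genes it was 0 of 13, with 0 at an unadjusted p of 0.05 and 1 called lower by edgeR. For glycolysis it was 0 of 2, with 0 at an unadjusted p of 0.05 and by edgeR. The adrenocortical region of smallest p, listed under the ACTH receptor gene Mc2r, had 163 and 158.8 against 254.8 and 203 (0.50 ± 0.26, limma adjusted p = 0.193). It lies over an exon of a transcript with no gene number, 132.4 kb from the Mc2r start. Each share can be read against 12.6% higher and 3.73% lower over all regions, and counts this small set no list apart.

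The regions were then set beside the RNA of the gene with the nearest start. Of the 2293 listed genes 1658 were tested in RNA, and 412 rose (24.8%) and 448 fell (27%), against 22.1% and 24.2% of all tested genes by the edgeR quasi-likelihood test. With library totals as the only scaling, which moved the median log2 difference of all genes from -0.02 to -0.36, the counts were 227 and 788, and upper-quartile scaling gave 317 and 576. Among regions that gained the mark and had a tested gene, 194 of 399 had RNA called higher (48.6%), 40 had RNA called lower (10.0%) and 165 had no call. Regions with no H3K27ac call had RNA higher in 21.4% and lower in 29.9%. For regions that lost the mark, 34 of 101 had RNA called lower (33.7%) and 28 had RNA called higher (27.7%), so losses were split between the directions. Over all regions the share of losses with lower RNA was 44.8% and with higher RNA 15.7%, and within 1 kb of a start it was 69.2% and 3.42%. Several regions of 1 gene share its RNA value, and the difference between classes was not tested. With the gene whose exon holds the region in place of the nearest start, 111 of 218 gains had higher RNA and 14 of 46 losses lower RNA, beside 16 with higher RNA.

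**Figure D4:**
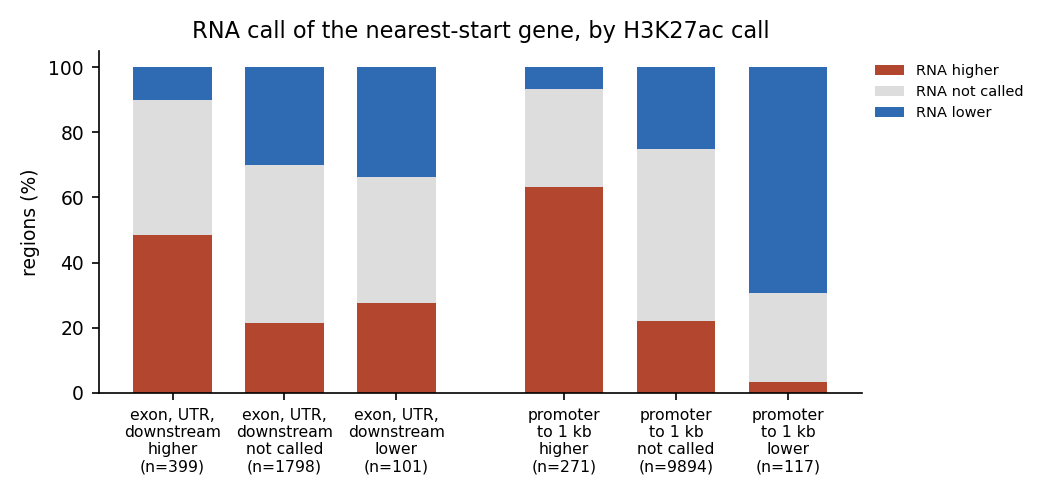
Share of regions (vertical axis, percent) whose nearest-start gene was called higher, lower or not called in RNA, by the H3K27ac call of the region; left, exon, UTR and downstream regions; right, regions within 1 kb of a start. Gains had higher RNA in 48.6% on the left and 63.1% on the right. Losses had lower RNA in 33.7% on the left and 69.2% on the right.

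Promoters of the same genes mostly were not called when these regions were. A region within 1 kb of a start was present for the gene of 2164 of the 3128 regions. Of 374 gains with such a promoter region, the promoter was higher at 50, lower at 1 and not called at 323 (86.4%). The median log2 difference was 1.53 for the gains and 0.22 for their promoters. Of 94 losses the promoter was lower at 4, higher at 2 and not called at 88 (93.6%), with medians of -1.24 and -0.02. The exonic, UTR or downstream region had more signal than the promoter of its gene in 352 of 2164 pairs (16.3%). Promoter signal is larger and its background of calls lower (2.67% and 1.39%), so a promoter without a call is not shown to be without change.

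**Figure D5:**
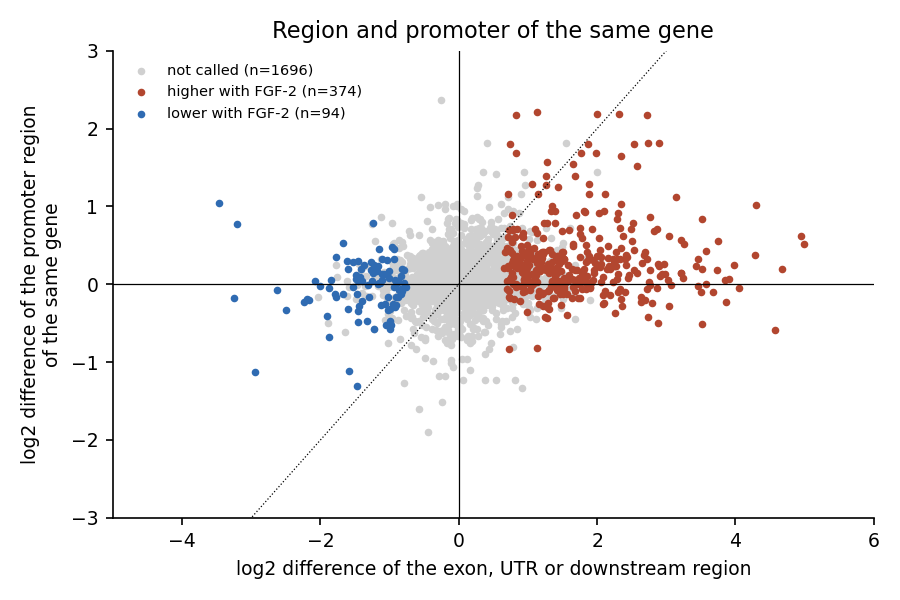
Log2 difference of each exon, UTR or downstream region (horizontal axis) against that of the strongest region within 1 kb of the start of the same gene (vertical axis); red, higher with FGF-2; blue, lower; grey, not called; the dotted line marks equal differences. Most coloured points lie near 0 on the vertical axis, with medians of 0.22 for gains and -0.02 for losses.

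The labelled cell type was checked against marker genes in RNA. Of 11 adrenocortical markers 7 had a mean above 1 CPM, with a summed level of 717.7 to 979.4 CPM in serum and 2365.8 to 3856.7 CPM with FGF-2, and Nr0b1 was at 0. Of 9 fibroblast and capsule markers 3 did, summing to 2800.3 to 3501.5 and 2033.7 to 2908.6 CPM, with Col1a2 and Dcn at 0. Markers of the adrenal medulla summed to 5.35 to 7.02 and 1.5 to 2.72 CPM, with Th and Dbh at 0, and those of endothelium and blood to 8.6 to 14.6 and 9.27 to 11.8 CPM, with Tek, Adgre1, Hba-a1 and Hbb-bs at 0. In bulk libraries fewer cells with a mark and less mark per cell cannot be told apart.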

How the data were processed

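The deposited region table gave the H3K27ac regions, their annotation, a signal per library and the authors' own log2 folds, p-values and false discovery rates. The submitters' processing notes list STAR 2.5.2a, together with SAMtools 1.1 and bedtools 2.15.0, and for peaks and regions MACS2 2.2.6 with DiffBind and ChIPseeker. They also list HTSeq 0.10.0, DESeq2 and build mm10. Per the file headers, peaks were called in each library against its own input, and the authors' values per peak are a pileup signal, a fold (ratio) over control and −log10 of p and q. The authors' RNA files hold counts per gene, and their deposited DESeq2 table log2 folds and p-values.

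Each signal is a number of whole reads, at least 1, times a factor per library (100% of values whole within 0.02 reads). ChIP libraries held 11840994 to 14156846 fragments, inputs 12241177 to 110273836 (the deepest for serum library 2), and RNA libraries 5625004 to 12696426 counts in genes. Entries outside genes, 37% to 43.2% of RNA counts, were left out. The kit keeps strand, but no source used here gives the strand setting of the counting, which leaves overlapping and antisense genes uncertain.

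H3K27ac was tested with limma 3.58.1 (trend, robust) on log2(signal + 1) over 40772 regions with no filter, in R 4.3.3. This scale understates the change of weak regions. RNA was tested with edgeR 4.0.16 (quasi-likelihood, TMM, filterByExpr), both with Benjamini-Hochberg adjustment at 0.05, and CPM used TMM factors. Alternatives were DESeq2 1.42.0, edgeR on the recovered reads, other scalings, filters and thresholds, a replicate block and left-out libraries. Data simulated over 40772 regions had 200 changed regions and a spread set in advance. In them limma called 6% of the regions changed 2-fold, 90% of those changed 4-fold and 1 unchanged region. In simulated RNA over 10235 genes, edgeR called 53.5%, 100% and 10. The control level at a peak is (pileup + 1) / fold − 1. RefSeq in GRCm38.p6, the assembly of mm10, gave the start windows. No genome was used, so region sequences were not analysed here.

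Named regions (mean signal of at least 20, except the strongest, the widest and those of the 3 genes with most regions) were the 8 largest changes each way with no overlap, up to 2 of smallest p each way per class, the 5 strongest and 3 widest, up to 3 per gene list, and 4 each way with RNA called the same or the opposite way. Spry2, Rbl1, Bcar1, Rhob, Setd1a and the regions holding a RefSeq start are named outside this rule. The regions, lists and rules were chosen with earlier results of these data known. Some named items are not reported here.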

Additional observations from a re-analysis of the deposited data

How the results depend on the processing

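Of 67 named regions called by limma, 31 kept direction and call under all 8 settings tried for them and 36 lost the call under at least 1. DESeq2 on recovered reads and the authors' deposited rates, which both called fewer regions than limma, were not among the 8. Of the 102 named regions, none that was called in the main fit or under the setting changed direction. Changes of direction in regions called in neither were not counted. The call was lost for 30 of the 67 without FGF-2 library 1, for 23 without FGF-2 library 2, for 6 and 5 without serum libraries 1 and 2, and for 4 each with edgeR and with centred libraries. Without an FGF-2 library the spread comes from the serum pair alone: the Lncpint region differed by 0.84 and 1.06 without FGF-2 libraries 1 and 2 (limma adjusted p = 0.352 and 0.132), against 0.95 with all libraries, so a call lost this way need not mean a smaller difference. A pseudocount of 8 changed no call of a named region, and gave 545 higher and 162 lower over all exon, UTR and downstream regions. The counts of called regions (528 higher, 155 lower) ranged from 142 to 607 and from 53 to 206 with 1 library left out. DESeq2 on recovered reads gave 248 and 95. The lower count was 243 with centred libraries, 240 with edgeR and 72 in the authors' deposited table. The 1924 regions with a peak in all 4 libraries became 1156 when the overlap had to cover 50% of the region. RNA calls became 227 higher and 788 lower with library totals only, and ranged from 318 to 432 and from 335 to 452 with 1 library left out. The cause of these shifts was not tested. ChIP libraries with the same number deviated in opposite ways (r = -0.217). With the replicate number as a block 398 regions were higher and 96 lower, 8 named calls were lost, among them Dusp4 exon 2 (limma adjusted p = 0.167), Smad7 exon 3 (0.15) and Myof exon 21 (0.166), and with the numbers crossed, an alternative chosen after seeing the data, 617 and 216. For RNA libraries with the same number r was -0.103, 0.066 and 0.381, the last for replicate 3. These values do not settle whether the numbers pair the RNA libraries, and the main fit did not pair them. The replicate block gave 426 higher and 474 lower genes, against 412 and 448 in the main fit. Leaving out regions at the floor or of high control level, and using the gene whose exon holds the region, were also chosen after seeing the data. Most 2-fold changes were missed in the simulation, which changed only 200 regions and had its spread set in advance. Of the limma calls, 425 of 528 higher and 120 of 155 lower ones reached 2-fold, so smaller differences were also called. With 2 libraries per group, a region without a call is not shown to be unchanged.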

Other observations

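Some regions changed against the RNA of their gene. Among gains with lower RNA, Arhgap18 exon 4 of 15 had 46 and 46.8 in serum and 142.6 and 106 with FGF-2 (log2 difference 1.39 ± 0.29, limma adjusted p = 6.4e-05), while its RNA fell by 1.16 on the log2 scale (SE 0.20, edgeR adjusted p = 0.00153). Among losses with higher RNA, Bahd1 exon 2 of 7, in a gene for a heterochromatin protein, had 140 and 113.7 against 62.8 and 50 (-1.16 ± 0.29, limma adjusted p = 0.000932), with an RNA difference of 0.60 ± 0.10 (edgeR adjusted p = 0.000976). A region near Tmem170b had 59.9 and 29.2 against 10.5 and 16 (-1.62 ± 0.42, limma adjusted p = 0.00148), with an RNA difference of 0.82 ± 0.10 (edgeR adjusted p = 0.000198). Each of these region calls was lost without at least 1 FGF-2 library, and that of Tmem170b also without serum library 1. The RNA call of Bahd1 was lost with library totals only.

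Of 42 regions listed under Zfp zinc finger genes 5 rose and 2 fell, while without either FGF-2 library 0 of the 42 were called. By limma 0 of 2 Hox and 0 of 3 histone gene regions were called, with 1 of each lower at an unadjusted p of 0.05 and by edgeR. The 3' UTR region of Hoxb9, a homeobox gene, had 278.1 and 198.9 in serum and 158.8 and 171 with FGF-2. The groups did not overlap, limma did not call it (-0.51 ± 0.26, adjusted p = 0.175) and edgeR did (adjusted p = 0.0065). The widest region, of 22375 bases in exon 1 of 1 of a transcript near Lncpint, had 2229.3 and 2372.6 against 4787 and 4121 (0.95 ± 0.21, limma adjusted p = 0.000132), a call lost without either FGF-2 library. The region near Lncppara, 20697 bases wide, had 3748.7 and 2530.5 against 2862.3 and 3167 and was not called (-0.033 ± 0.21).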
